A study of Mus musculus with 9 samples.

Results

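The genes described here are the insulin-like growth factor (IGF) binding proteins IGFBP1 to IGFBP7 and the receptors IGF1R and IGF2R, 9 genes taken by name from the 58735 human genes of the deposited count table. They were followed over 9 RNA-seq libraries of Caki, an established human line of clear cell renal carcinoma, in 3 groups of 3 libraries. MX cells carried the empty retroviral control vector, YAP1 cells the same kind of vector with wild-type YAP1, and YAP1-S127A cells the vector with YAP1 whose serine at residue 127 is replaced by alanine. All 3 groups were selected with G418 and grown in DMEM/F12 medium with serum, so MX shares the vector, the selection and the serum with the other groups. Serum brings IGFs and their binding proteins that RNA counts do not show. YAP1 is a transcriptional coactivator of the Hippo pathway, and phosphorylation at that serine holds it in the cytoplasm. The labels do not say whether each group is a pool or a clone, or whether a culture gave more than 1 of its libraries, and the p-values reflect library-to-library spread alone and that spread may be technical. They name the mouse as organism, but the genes of the table are human Ensembl genes and are treated as such.

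IGF1 and IGF2 are small secreted hormones that signal mainly through IGF1R, a receptor tyrosine kinase related to the insulin receptor. IGF2R, also the cation-independent mannose 6-phosphate receptor, has no kinase, takes IGF2 up for degradation and carries lysosomal enzymes to the lysosome. IGFBP1 to IGFBP6 bind IGFs with high affinity in blood and tissue fluid, which keeps the hormones from the receptor or brings them near it, and proteases such as PAPPA release the hormone again. IGFBP7 binds IGFs only weakly, and several binding proteins also act on cells without IGFs. In kidney, both receptors and several binding proteins are made by tubule and interstitial cells.

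Total counts per library ran from 15789722 to 24811150, and 3 counts, the limit a count of 0 allows, stand for 0.107 to 0.229 CPM (the count scaled by the TMM-adjusted library size), which covers counting error only. The YAP1 gene, whose row holds endogenous and introduced transcripts together, lay between 91.1 and 108 CPM in MX, between 1003 and 1519 CPM with YAP1 and between 631 and 741 CPM with YAP1-S127A. Mitochondrially encoded RNA made up 1.896 to 6.60% of counts in MX, 3.50 to 11.4% with YAP1, and 29.6%, 7.40% and 21.2% in YAP1-S127A replicates 1, 2 and 3. The 10 markers of renal tubule and clear cell carcinoma summed to 5786 to 7054 CPM in MX, 5068 to 6263 CPM with YAP1 and 5600 to 7732 CPM with YAP1-S127A. PAX2 and CA9, which often marks clear cell carcinoma, stayed under 1 CPM in every library. Markers of leukocytes summed to at most 1.68 CPM and those of endothelium to at most 1.89 CPM, with PTPRC, CD3E, VWF and CDH5 under 1 CPM in every library. Of 9 fibroblast and stroma markers, PDGFRA and THY1 were under 1 CPM throughout. The list summed to 774 to 1309 CPM in MX, 1337 to 1690 CPM with YAP1 and 2147 to 3960 CPM with YAP1-S127A. COL1A1 made up most of each sum, at 929, 1482 and 2826 CPM on average in MX, YAP1 and YAP1-S127A. In bulk RNA, fewer cells of a type and less RNA per cell cannot be told apart.

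Which of these genes Caki cells transcribe was read from CPM divided by the deposited gene length in kilobases (CPM per kb). The scale compares genes only as far as that length matches the transcripts these cells make, which was not tested. IGFBP7 stood far above the rest in MX, at 1068 ± 269 CPM per kb (SD, n = 3), rank 23 of the 15492 tested genes. IGFBP6 followed at 60.3 ± 17.7 CPM per kb, then IGFBP3 at 22.1 ± 8.93, IGF2R at 13.5 ± 0.993, IGFBP4 at 9.83 ± 2.00 and IGF1R at 4.26 ± 0.117. IGFBP5 was low at 0.419 ± 0.0392 CPM per kb, and IGFBP1 and IGFBP2 were close to absent. Neighbours in this order did not overlap between libraries, except IGFBP3 with IGF2R and IGFBP1 with IGFBP2. With YAP1 the order of the 9 means was the same, and IGF2R now also overlapped IGFBP4. With YAP1-S127A the order changed among the binding proteins. IGFBP3 stood second at 83.8 ± 38.6 CPM per kb, overlapping IGFBP6 at 69.7 ± 15.4. IGFBP4 came next at 43.2 ± 14.6, overlapping both IGFBP6 and IGFBP3 and above IGF2R at 16.9 ± 0.945. Among the low genes, IGFBP5 overlapped IGFBP1.

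**Figure D1:**
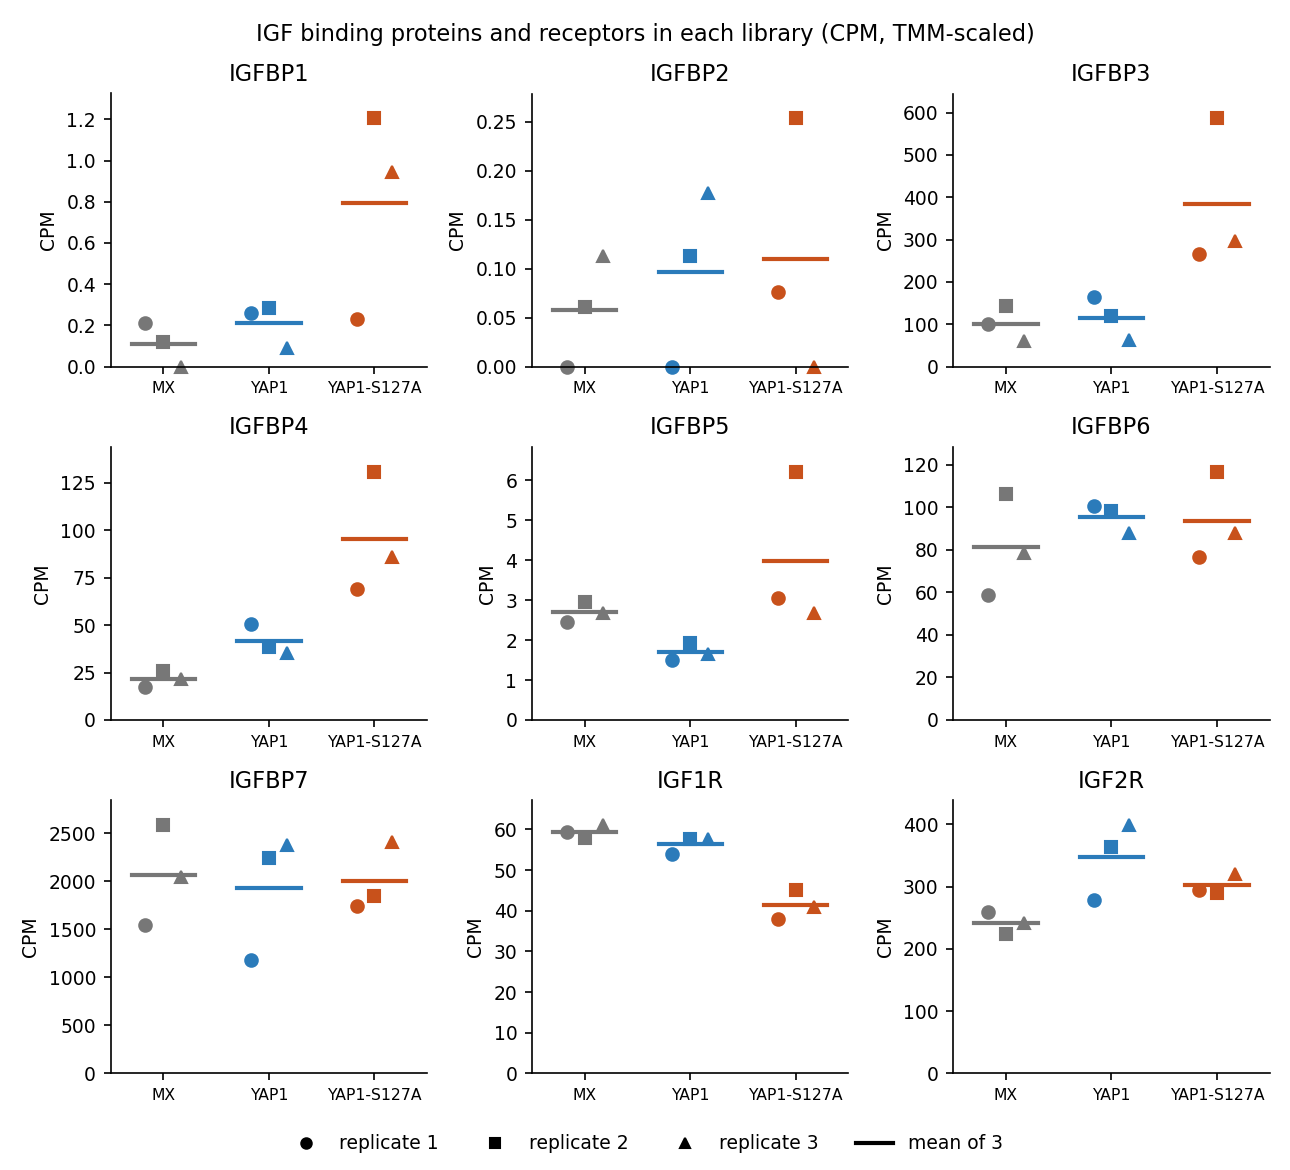
Each panel plots the TMM-scaled CPM of 1 gene on a linear axis from 0, with 1 point per library, the marker shape giving the replicate and the bar the mean of 3 libraries. IGFBP4 rises in steps from 17.1 to 25.9 CPM in MX to 68.8 to 131 CPM with YAP1-S127A, IGF1R is lowest with YAP1-S127A, and IGFBP7 lies between 1177 and 2585 CPM in all groups.

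IGFBP4, a binding protein that PAPPA cleaves, rose with both constructs and furthest with YAP1-S127A. Its locus is chromosome 17, 40443461 to 40457731, plus strand (ENSG00000141753; positions here are those of the table, whose human build is not named in the sources used here). Its level was 17.1, 25.9 and 21.8 CPM in MX replicates 1, 2 and 3, then 50.7, 38.7 and 35.1 CPM with YAP1 and 68.8, 131 and 85.8 CPM with YAP1-S127A. No 2 groups overlapped, and every YAP1-S127A library lay above every YAP1 library. Against MX the log2 fold change was 0.95 with YAP1 (SE 0.23, adjusted p = 0.0280 by quasi-likelihood F test in edgeR, Benjamini-Hochberg adjusted) and 2.14 with YAP1-S127A (SE 0.23, adjusted p = 4.3e-05), which is 1.93-fold and 4.42-fold. These comparisons share the MX libraries. In the direct test YAP1-S127A exceeded YAP1 by 1.20 (SE 0.23, adjusted p = 0.0170), while its libraries held less of the YAP1 transcript. The rise with YAP1-S127A passed under all 21 alternatives, with log2 fold changes of 1.84 to 2.71 and an adjusted p of at most 0.00573. The rise with YAP1 was lost without MX replicate 1 (adjusted p = 0.178), MX replicate 3 (0.0978), YAP1 replicate 1 (0.0783) or YAP1 replicate 2 (0.0604) and with scaling to total counts (0.160). The difference between the constructs was lost without MX replicate 1 (0.0778), YAP1 replicate 2 (0.0834) or YAP1 replicate 3 (0.0724), with total counts (0.105) and with only these groups fitted (0.141). Of 6 tested fibroblast markers, 1 was called higher with YAP1 (LUM), 5 with YAP1-S127A and 4 between the constructs, and none was called lower. Of all tested genes, 3.23%, 9.53% and 1.13% were called higher in these comparisons, and 3.58%, 8.84% and 0.839% lower. Of 8 tested markers of renal tubule and clear cell carcinoma, 3 were called lower with YAP1. With YAP1-S127A 4 of them were lower and 1 was higher, and between the constructs 2 were lower. With YAP1 the means of PDGFRB (30.2 to 26.0 CPM) and DCN (0.706 to 0.371 CPM) lay below MX. Those of LUM, COL1A1, COL1A2 and FAP lay above. The part of these markers in the result was not tested.

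IGFBP3, the main IGF carrier of blood, had the highest levels in all 3 YAP1-S127A libraries, but its difference did not pass the test. The gene (ENSG00000146674) occupies chromosome 7 from 45912245 to 45921874 on the minus strand. MX replicates 1 to 3 held 99.6, 143 and 61.2 CPM, YAP1 replicates 165, 119 and 63.4 CPM, and YAP1-S127A replicates 267, 586 and 296 CPM. MX and YAP1 overlapped widely, and the YAP1-S127A libraries lay above both. The spread was large in each group, with a highest library 2.20 to 2.60 times the lowest. The log2 fold change was 1.92 for YAP1-S127A against MX (SE 0.52, adjusted p = 0.0512), 1.73 against YAP1 (SE 0.52, adjusted p = 0.239) and 0.20 for YAP1 against MX (SE 0.51, adjusted p = 0.886). The value against MX sits at the threshold, and 8 of 21 alternatives called it, among them DESeq2 (adjusted p = 0.00188), limma-voom (0.000899), the replicate number as a block (0.0228) and the fit without YAP1 replicate 3 (0.0383). With the mitochondrial share as covariate it was 2.58 (adjusted p = 0.0389). The 13 alternatives that did not call the value against MX had an adjusted p of up to 0.130. DESeq2 (0.0304) and limma-voom (0.0127) also called the difference from YAP1, and the other 19 of 21 alternatives did not (adjusted p up to 0.446).

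IGFBP1, which in liver is controlled by insulin, is the neighbour of IGFBP3. It lies at 45888357 to 45893668 on the plus strand of chromosome 7 (ENSG00000146678), so that the ends of both genes face each other across 18576 bases with no other gene of the table between them. Its counts were 6, 2 and 0 in MX, 5, 5 and 2 with YAP1, and 3, 19 and 18 with YAP1-S127A, too few for the filter on low counts. YAP1-S127A replicates 2 and 3 were the libraries with more than 6 counts, while YAP1-S127A replicate 1, at 0.229 CPM, lay beside MX replicate 1 at 0.214 CPM. With no filter edgeR gave a log2 fold change against MX of 2.78 (adjusted p = 0.00318), which depends on the prior count at such levels, and it was lost without MX replicate 3 (adjusted p = 0.0658) or YAP1-S127A replicate 2 (0.0739). The other comparisons of IGFBP1 did not pass with no filter (adjusted p = 0.733 for YAP1 against MX and 0.196 between the constructs).

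IGFBP5, a binding protein that attaches to matrix, was the one tested member whose point estimates against MX had opposite signs with the 2 constructs, though neither passed. It occupies chromosome 2, 216672105 to 216695525, minus strand (ENSG00000115461). Levels were 2.46, 2.96 and 2.67 CPM in MX, 1.503, 1.93 and 1.64 CPM with YAP1, and 3.05, 6.22 and 2.68 CPM with YAP1-S127A, on 29 to 98 counts per library. All YAP1 libraries lay below the others, while YAP1-S127A overlapped MX through its replicate 3, and its replicate 2 stood alone at the top. Log2 fold changes were -0.67 for YAP1 against MX (SE 0.31, adjusted p = 0.230), 0.57 for YAP1-S127A against MX (SE 0.29, adjusted p = 0.194) and 1.23 between the constructs (SE 0.31, adjusted p = 0.0423). The value for YAP1-S127A against MX was 0.085 without YAP1-S127A replicate 2 (adjusted p = 0.882), and with the mitochondrial share as covariate it was 1.12 and passed (adjusted p = 0.0457). The call between the constructs was lost without MX replicate 3 (0.0584), any of YAP1 replicates 1, 2 and 3 (0.185, 0.0983 and 0.155) or YAP1-S127A replicate 2, without which the value was 0.75 (0.309), and in limma-voom (0.109). IGFBP2, its neighbour at 216632828 to 216664436 on the plus strand (ENSG00000115457), faces IGFBP5 across 7668 bases. IGFBP2 had 0 to 4 counts in each of the 9 libraries and 15 in all, so no difference was detectable at this depth.

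IGFBP6, which prefers IGF2, and IGFBP7 were the most abundant binding proteins in MX per kilobase, and neither passed in any comparison. In CPM, IGFBP3 exceeded IGFBP6 in MX on average (101 against 81.2 CPM). IGFBP6 (ENSG00000167779) spans chromosome 12, 53097436 to 53102345, plus strand. It read 58.8, 106 and 78.6 CPM in MX, 101, 98.2 and 87.8 CPM with YAP1 and 76.5, 117 and 88.0 CPM with YAP1-S127A, all groups overlapping. Its log2 fold changes were 0.24 (SE 0.18, adjusted p = 0.540) for YAP1 and 0.21 (SE 0.18, adjusted p = 0.480) for YAP1-S127A against MX. IGFBP7 (ENSG00000163453) spans chromosome 4, 57030773 to 57110385, minus strand. MX libraries held 1547, 2585 and 2050 CPM, YAP1 libraries 1177, 2239 and 2383 CPM and YAP1-S127A libraries 1742, 1843 and 2411 CPM. YAP1 replicate 1 was the lowest of the 9 and MX replicate 2 the highest. The log2 fold changes of IGFBP7 were -0.09 (SE 0.25, adjusted p = 0.888) and -0.04 (SE 0.25, adjusted p = 0.930) against MX and 0.05 (SE 0.25, adjusted p = 0.965) between the constructs, so that a difference was not detectable beyond these standard errors. POLR2B overlaps IGFBP7 on the opposite strand and had 4.85% as many counts, and whether reads were shared between them was not tested.

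The make-up of the binding protein transcripts was described per library as the share of each gene in the sum of the 7 IGFBPs on the CPM per kb scale. That sum was 1160 ± 294 CPM per kb in MX, 1117 ± 324 with YAP1 and 1233 ± 185 with YAP1-S127A (SD, n = 3). IGFBP7 made up 92.0% ± 0.707 in MX, 88.5% ± 5.79 with YAP1 and 83.9% ± 5.54 with YAP1-S127A, and each YAP1-S127A library was below each MX library. IGFBP3 took 1.93% ± 0.683 in MX, 2.64% ± 1.97 with YAP1 and 6.85% ± 3.13 with YAP1-S127A, and IGFBP4 took 0.854% ± 0.0433, 1.89% ± 1.05 and 3.52% ± 1.14. YAP1 replicate 1 stood apart in its group: IGFBP7, at its lowest level there, took 82.0%, and IGFBP6 took 10.04%. By CPM without the length, IGFBP3 took 4.51%, 6.09% and 14.8% on average in MX, YAP1 and YAP1-S127A, and IGFBP7 90.8%, 87.0% and 77.7%. All these shares are a description without a test.

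**Figure D2:**
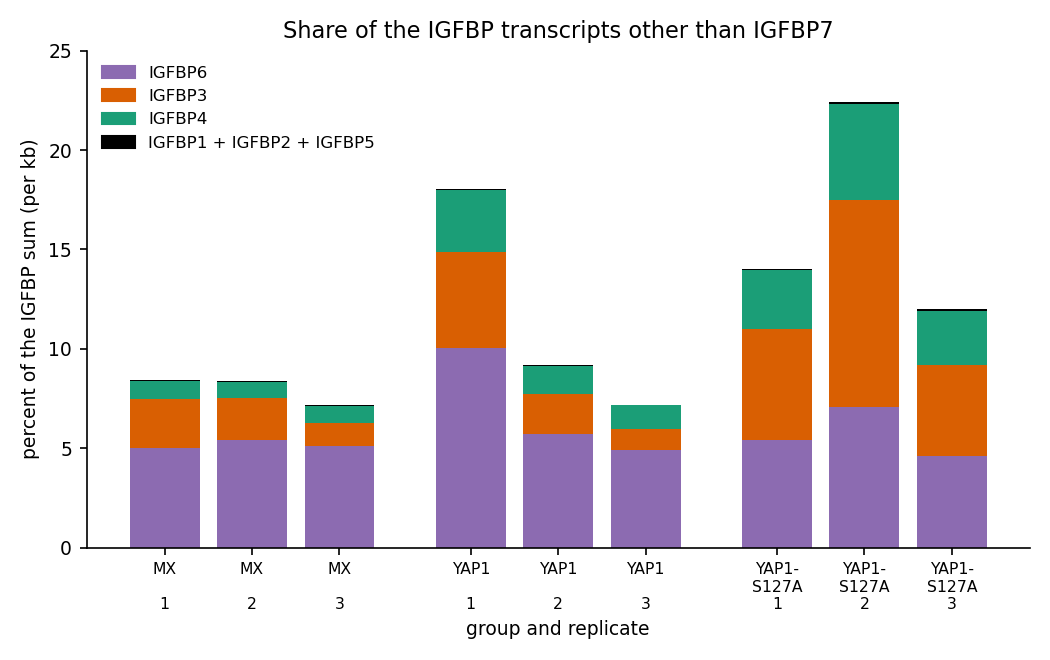
Stacked bars give, for each library, the percent of the summed IGFBP signal (CPM per kb) that came from IGFBP6, IGFBP3, IGFBP4 and, in black, IGFBP1, IGFBP2 and IGFBP5 together; IGFBP7 makes up the remainder to 100% and is not drawn. The IGFBP3 segment spans 1.17 to 2.49% in MX and 4.56 to 10.4% with YAP1-S127A.

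IGF1R, the signalling receptor, fell with YAP1-S127A, and IGF2R, the clearance and sorting receptor, rose with YAP1. IGF1R (ENSG00000140443) spans chromosome 15, 98648539 to 98964530, plus strand. It read 59.3, 57.8 and 61.1 CPM in MX, 53.8, 57.6 and 57.7 CPM with YAP1 and 38.1, 45.0 and 41.0 CPM with YAP1-S127A. The YAP1-S127A libraries were below all others, and the YAP1 libraries were just below MX with a gap smaller than the spread within a group. With YAP1-S127A IGF1R fell by 0.52 on the log2 scale against MX (SE 0.11, adjusted p = 0.00211), 1.44-fold lower, and it was lower than with YAP1 (-0.45, SE 0.11, adjusted p = 0.0395). For YAP1 against MX the value was -0.08 (SE 0.11, adjusted p = 0.774). The fall against MX passed under 20 of 21 alternatives. The exception was the fit with the mitochondrial share as covariate, with -0.40 (adjusted p = 0.145). The call between the constructs was lost with that covariate (0.347) and without any of MX replicate 3 (0.0571), YAP1 replicates 1, 2 and 3 (0.0712, 0.140 and 0.165) and YAP1-S127A replicates 1, 2 and 3 (0.130, 0.0567 and 0.155).

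IGF2R (ENSG00000197081) spans chromosome 6, 159969099 to 160113507, plus strand. MX replicates 1, 2 and 3 held 259, 224 and 241 CPM, YAP1 replicates 279, 363 and 399 CPM and YAP1-S127A replicates 295, 290 and 321 CPM. Every library of either construct lay above MX, and the constructs overlapped. The log2 fold change was 0.52 with YAP1 (SE 0.13, adjusted p = 0.0178) and 0.32 with YAP1-S127A (SE 0.13, adjusted p = 0.0951), and the difference between the constructs was -0.20 (SE 0.13, adjusted p = 0.582). The call with YAP1 was lost without MX replicate 2 (0.0672), MX replicate 3 (0.0647), YAP1 replicate 2 (0.0872) or YAP1 replicate 3 (0.143) and with total counts (0.0955). Over the 796 tested genes of chromosome 6 the median for YAP1 against MX was 0.19 on the log2 scale, and with chromosome-wide shifts removed IGF2R had 0.34 (adjusted p = 0.138).

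The ratio of the receptors within a library does not depend on library scaling. Its size rests on the deposited gene lengths, which are the same for every group. Per kilobase, IGF2R was 3.41, 3.02 and 3.09 times IGF1R in MX, 4.05, 4.93 and 5.40 times with YAP1 and 6.05, 5.03 and 6.12 times with YAP1-S127A. Both constructs were above MX in every library, and they overlapped each other. The ratio was chosen with the values known and is given without a test.

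**Figure D3:**
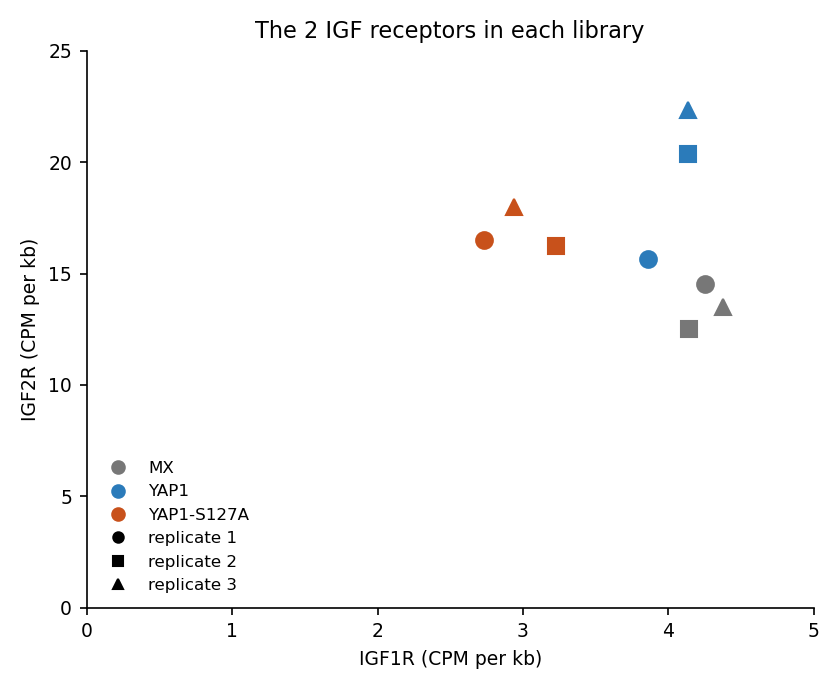
Each point is 1 library, with IGF1R on the horizontal and IGF2R on the vertical axis, both in CPM per kb on linear axes from 0; colour gives the group and shape the replicate. YAP1 libraries lie above MX at a similar IGF1R level (3.86 to 4.14 against 4.15 to 4.38), while YAP1-S127A libraries lie to the left, at 2.73 to 3.23.

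Of the 9 genes, 7 passed the filter on low counts and were tested. In YAP1 against MX 2 of the 7 passed, IGFBP4 and IGF2R, both higher, where 6.81% of all 15492 tested genes passed, 3.23% higher and 3.58% lower. In YAP1-S127A against MX 1 rose (IGFBP4) and 1 fell (IGF1R), where 18.4% of all tested genes passed, 9.53% higher and 8.84% lower, so that 2 of 7 is near the background. Between the constructs 2 were higher with YAP1-S127A (IGFBP4 and IGFBP5) and 1 was lower (IGF1R), where 1.97% of all tested genes passed, 1.13% higher and 0.839% lower. Groups did not overlap for 4 of the 7 in each comparison. In YAP1 against MX these were 2 higher and 2 lower, beside 24.1% of all tested genes (12.1% higher and 12% lower). In YAP1-S127A against MX 3 were higher and 1 lower, beside 32.6% (16.7% and 16%), and between the constructs 3 were higher and 1 lower, beside 19.6% (10.3% and 9.34%). The median log2 fold change of the 7 was 0.20, 0.32 and 0.05 in these comparisons, and that of all tested genes was -0.00361, -0.00449 and 0.00559. These counts describe 7 chosen genes.

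**Figure D4:**
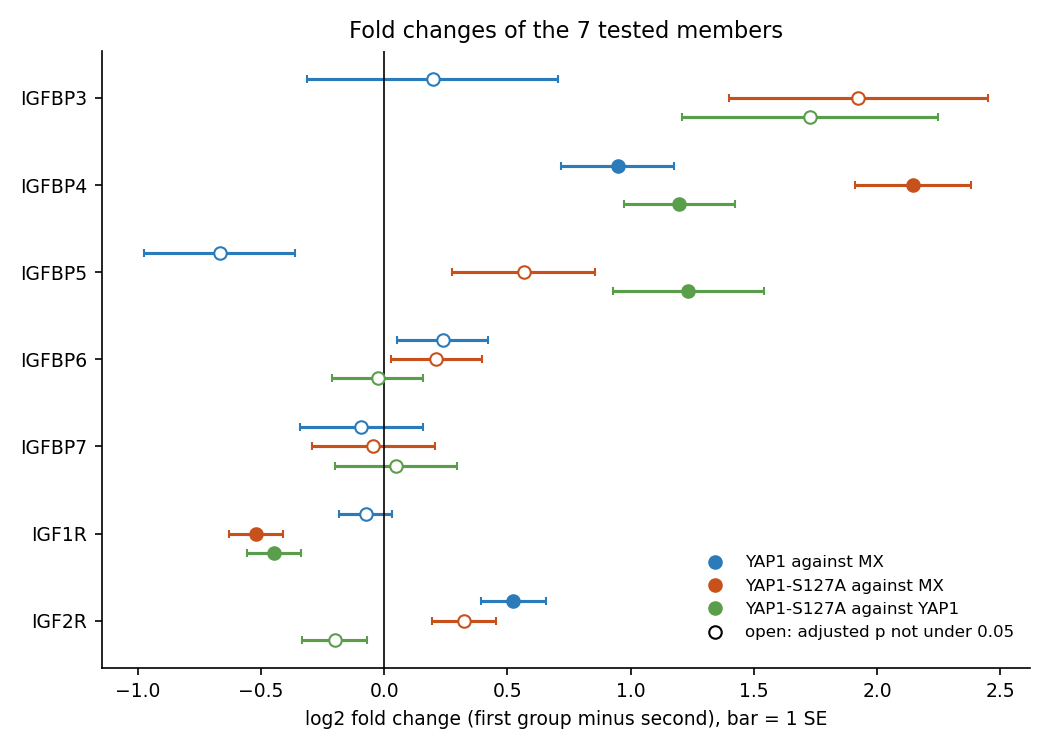
Points give the log2 fold change of each tested gene in the 3 comparisons and bars 1 SE; filled points have an adjusted p under 0.05 in edgeR's test. IGFBP4 lies to the right in all 3 comparisons (0.95, 2.14 and 1.20), and the IGFBP3 bars are the widest. IGF1R lies left of 0 in all 3, at -0.08 for YAP1 against MX and at -0.52 and -0.45 where YAP1-S127A is compared.

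In the YAP1-S127A group, replicate 2 had the highest level of 7 of the 9 genes, all except IGFBP7 and IGF2R. For IGFBP1 this rests on 19 counts against 18 in replicate 3, and for IGFBP2 on 4 counts. How often replicate 2 was highest over all tested genes was not computed. Replicate 2 was also the library with the lowest mitochondrial share of its group, 7.40%. Without it, the log2 fold change against MX was 1.84 for IGFBP4, which passed, and 1.48 for IGFBP3 (adjusted p = 0.116). The part of the mitochondrial share in these values was not tested beyond the fit that holds it as a covariate, where IGFBP4 had 2.71.

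The ligands were close to absent. IGF1 had 5 counts over the 9 libraries, 4 of them in YAP1-S127A replicate 2, IGF2 had 2 counts, and INS, the insulin gene, had 0. IGFALS, the third partner of IGF and IGFBP3 in the blood complex, had 19. None of these 4 reached the filter, and no library held IGF1 or IGF2 above the 0.107 to 0.229 CPM that 3 counts stand for, except YAP1-S127A replicate 2 with 4 counts of IGF1. INSR, the insulin receptor, was low, at 1.06 ± 0.252 CPM in MX, 0.726 ± 0.160 with YAP1 and 0.492 ± 0.185 with YAP1-S127A (SD, n = 3), and did not pass. Its relative INSRR had 2 counts in all.

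Of 9 IGFBP proteases and their inhibitors, 8 were tested, and 2 fell with each construct. Of all tested genes, 3.58% fell with YAP1 and 8.84% with YAP1-S127A. MMP7, the metalloproteinase matrilysin, which can cleave binding proteins, dropped from 1076, 1412 and 765 CPM in MX to 486, 674 and 525 CPM with YAP1 (log2 fold change -0.95, SE 0.19, adjusted p = 0.00390) and 382, 294 and 381 CPM with YAP1-S127A (-1.62, SE 0.19, adjusted p = 9.4e-06). The call with YAP1 was lost without MX replicate 1 (0.0538). HTRA1, a secreted serine protease that itself carries an IGFBP-type domain, dropped from 161 ± 33.1 CPM in MX to 83.8 ± 22.8 with YAP1 and 84.9 ± 20.2 with YAP1-S127A (SD, n = 3), by -0.94 (adjusted p = 0.0171) and -0.92 (adjusted p = 0.00869). Its calls were lost with YAP1 without MX replicate 1 (0.0922), MX replicate 2 (0.0521) or YAP1 replicate 3 (0.0716), and with YAP1-S127A without MX replicate 1 (0.0610) or with the mitochondrial covariate (0.183). PAPPA, a protease of IGFBP4, was level at 7.64 ± 1.22, 7.79 ± 0.850 and 8.23 ± 0.275 CPM in MX, YAP1 and YAP1-S127A, with groups that overlapped. Its inhibitors STC1 and STC2, the stanniocalcins, did not pass, STC1 at 28.2, 30.4 and 30.3 CPM on average and STC2 at 3.04, 3.21 and 6.49 CPM. The median over these 8 genes was -0.32 with YAP1 and 0.06 with YAP1-S127A.

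Downstream of the receptors, 22 of 24 adaptors and PI3K-AKT-mTOR genes were tested. The test called 1 of the 22 with YAP1 and 4 with YAP1-S127A. Beside 6.81% and 18.4% of all tested genes, both counts are near the background. With YAP1 1 passed, AKT1, the kinase that the pathway activates, which rose by 0.42 (adjusted p = 0.0282). With YAP1-S127A AKT1 rose (0.33, adjusted p = 0.0477), and 3 genes fell: GRB14, an adaptor that restrains the insulin receptor, by -0.99 (SE 0.17, adjusted p = 0.000258), PIK3R1, a regulatory subunit of PI3K, by -0.58 (SE 0.14, adjusted p = 0.00686), and FOXO1, a transcription factor that AKT switches off, by -0.53 (SE 0.18, adjusted p = 0.0455). GRB14 went from 21.0, 20.1 and 15.9 CPM in MX to 12.1, 8.56 and 8.14 CPM with YAP1-S127A, and passed under every alternative. The call of AKT1 with YAP1-S127A was lost without any 1 of the 9 libraries (adjusted p = 0.0516 to 0.142), with total counts (0.813), with no filter (0.116), with only the groups compared (0.0880) and with the mitochondrial covariate (0.255). Its call with YAP1 was lost without MX replicate 2 (0.0624), YAP1 replicate 2 (0.0988) or YAP1 replicate 3 (0.150), with total counts (0.230) and with only the groups compared (0.0511). FOXO1, whose YAP1-S127A and MX libraries overlapped, was lost without MX replicate 1 or 3 (0.101 and 0.156), YAP1 replicate 1, 2 or 3 (0.0571, 0.0631 and 0.0615) or YAP1-S127A replicate 2 or 3 (0.179 and 0.152), with only the groups compared (0.0881) and with the mitochondrial covariate (0.0625), and PIK3R1 with the mitochondrial covariate (0.0703). IRS1 and IRS2, the docking proteins of IGF1R and the insulin receptor, did not pass, at 17.0, 20.2 and 19.0 CPM and 22.5, 22.8 and 21.0 CPM on average in MX, YAP1 and YAP1-S127A. The list median was 0.03 with YAP1 and -0.01 with YAP1-S127A. Between the constructs 0 of 22 passed in edgeR's test, beside 1.97% of all tested genes. There 5 had an unadjusted p under 0.05, DESeq2 called 1 and limma-voom 0.

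Other secreted proteins share the IGFBP-type domain at their amino end, among them the CCN family. Of 12 listed, 6 were tested, and the same count, 2 higher and 2 lower, was found with each construct. Of all tested genes, 3.23% were higher and 3.58% lower with YAP1, and 9.53% and 8.84% with YAP1-S127A. CYR61 (CCN1) and WISP2 (CCN5) rose, WISP2 from 0.677, 0.544 and 0.714 CPM in MX to 3.01, 2.55 and 1.42 CPM with YAP1 (log2 fold change 1.81, SE 0.34, adjusted p = 0.00181) and 3.66, 5.33 and 3.73 CPM with YAP1-S127A (2.68, SE 0.33, adjusted p = 8.5e-06). NOV (CCN3) and HTRA1 fell, NOV from 41.3 ± 0.862 CPM to 26.8 ± 5.55 with YAP1 (-0.63, adjusted p = 0.00667) and 22.9 ± 0.823 with YAP1-S127A (-0.85, adjusted p = 0.000210; SD, n = 3). CTGF (CCN2) did not pass, at 139, 132 and 177 CPM on average. WISP2 had 9 to 19 counts per MX library.

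Of 3 IGF2 mRNA-binding proteins, which regulate transcripts rather than the hormone, IGF2BP1 fell with YAP1-S127A by -0.41 (SE 0.13, adjusted p = 0.0262), a call lost without MX replicate 1 (0.0573), MX replicate 3 (0.0523) or YAP1-S127A replicate 3 (0.144), with the mitochondrial covariate (0.191) and with chromosome-wide shifts removed (0.0828). Of 4 genes of mannose 6-phosphate sorting beside IGF2R, 0 passed in edgeR, DESeq2 or limma-voom in the 3 comparisons, and 0 had an unadjusted p under 0.05. Of 5 cell-surface partners of IGFBPs, 0 passed in those tools, with 1 at an unadjusted p under 0.05 in each comparison with MX and 0 between the constructs. Counted once each, 48 of 62 listed pathway genes were tested, and 3 rose and 3 fell with YAP1 and 3 rose and 7 fell with YAP1-S127A. Between the constructs 0 of 48 passed in edgeR, with 12 at an unadjusted p under 0.05, 3 called by DESeq2 and 0 by limma-voom. Those counts lie beside 6.81% of all tested genes with YAP1, 18.4% with YAP1-S127A and 1.97% between the constructs. The medians of the 48 genes were 0.02 and 0.04 with YAP1 and YAP1-S127A against MX.

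**Figure D5:**
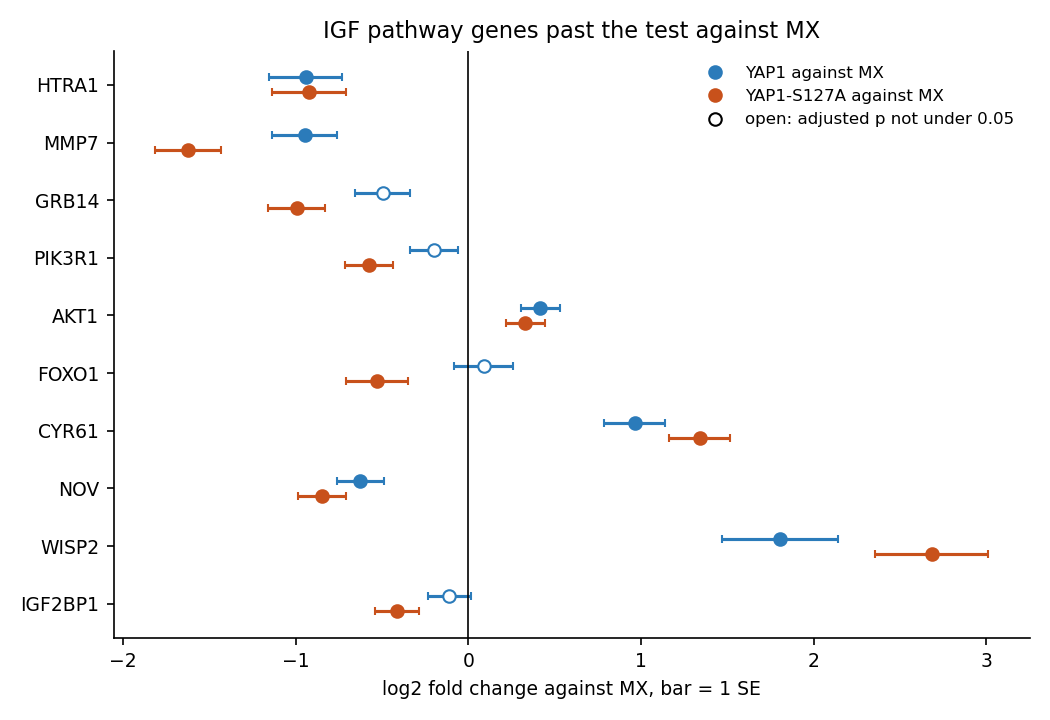
Points give the log2 fold change against MX and bars 1 SE for the listed pathway genes that passed edgeR's test with either construct, filled where the adjusted p is under 0.05. WISP2 and CYR61 lie to the right and MMP7, HTRA1 and NOV to the left with both constructs, which share the MX libraries.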

How the data were processed

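The authors deposited 1 table of unnormalized read counts for 9 libraries, per the file headers. Per the labels' protocols the kit was stranded and selected mRNA. The tools listed, per the submitters' processing notes, are Salmon 1.9.0, HISAT2 and Cufflinks, with GRCm39 as build. That is a mouse build, whereas the table holds human Ensembl genes. The sources used here do not give the counting program or its strand setting. Genes were kept by filterByExpr (15492 of 58735), TMM-scaled, and all 9 libraries entered 1 robust quasi-likelihood fit of edgeR 4.0.16 (R 4.3.3) with group as its 1 factor. Tests were two-sided, adjusted by Benjamini-Hochberg over all tested genes, and called at an adjusted p under 0.05. Each SE is the size of the log2 fold change over the root of its F statistic. All 9 genes, pathway genes past the test against MX, a few central ones and the introduced YAP1 are named. Members and lists were chosen with earlier results of these data known. CPM per kb uses the gene length of the table. Alternatives were DESeq2 1.42.0, limma-voom (limma 3.58.1), other scalings and filters, a replicate block, a mitochondrial covariate, removal of chromosome-wide shifts and leaving out each library; for IGFBP1 with no filter, leaving out libraries was added after seeing the data. Only the edgeR fit was tested on simulated counts, drawn with the spread that edgeR had estimated from these data. The filter, the alternatives and the CPM per kb scale were not tested in this way. Library correlation within groups was 0.983 to 0.990. No human sequence or annotation was used here.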

Additional observations from a re-analysis of the deposited data

How the results depend on the processing

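The 21 alternatives were other scalings, filters, tests and sample sets, a block for replicate number, fits lacking 1 library, and terms for mitochondrial share and chromosome. No called member changed sign. Signs changed only for values that did not pass: IGFBP6 with total counts (-0.027 for YAP1-S127A against MX) and the mitochondrial covariate (0.23 between the constructs), and IGFBP7 between the constructs with total counts (-0.14) and that covariate (-0.11). Leaving out 1 library gave -0.15 to 0.53 for IGFBP3 and -0.27 to 0.16 for IGFBP7 in YAP1 against MX, -0.22 to 0.15 for IGFBP7 in YAP1-S127A against MX, and -0.22 to 0.093 for IGFBP6 and -0.21 to 0.23 for IGFBP7 between the constructs.

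Members called in YAP1 against MX numbered 0 with total counts and 1 with chromosome-wide shifts removed, and 0 to 2 over the leave-one-out fits; between the constructs they numbered 0 to 3. All genes called numbered 598 to 1413, 1827 to 3063 and 125 to 460 over those fits for YAP1 against MX, YAP1-S127A with MX and the constructs with each other. In YAP1-S127A against MX 4447 genes passed with total counts and 1405 with the mitochondrial covariate, beside 2845. Between the constructs 616 passed with total counts, 520 with no filter, 475 with DESeq2, 477 with only the groups compared and 472 with the replicate block, beside 305. With total counts the median of all genes was -0.08, -0.28 and -0.20, beside -0.00361, -0.00449 and 0.00559, and the calls were 311 higher and 679 lower, 611 and 3836, and 113 and 503, beside 500 and 555, 1476 and 1369, and 175 and 130. The cause of these shifts was not tested.

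The labels do not say whether replicate numbers pair the libraries, and 3 libraries per group are too few to settle it. Deviations from group means correlated above 0.1 in 1 of 9 same-numbered pairs (-0.18 to 0.20). Of 9 libraries, 3 correlated best with their own number. With the replicate block 1428 genes passed in YAP1 against MX, 3426 in YAP1-S127A against MX and 472 between the constructs, beside 1055, 2845 and 305. With the replicate block IGFBP3 passed in YAP1-S127A against MX (1.96, adjusted p = 0.0228).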

Other observations

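Secreted binding proteins varied more between libraries of 1 group than most genes did. The pooled SD within groups of log2 CPM (prior count 2) was 0.64 for IGFBP3, 0.42 for IGFBP7, 0.36 for IGFBP4 and 0.31 for IGFBP6, against a median of 0.16 over 9824 tested genes whose mean log2 CPM reached 3. Of those genes, 99.6%, 99.0%, 97.99% and 95.8% had a smaller SD. IGF2R, at 0.17, exceeded 57.5% of them, and IGF1R, at 0.08, exceeded 5.62%.

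For the members that passed the test against MX (IGFBP4, IGF1R and IGF2R), the genes with the most similar pattern over the 9 libraries were picked by Pearson correlation of log2 CPM among 9522 protein-coding genes whose mean log2 CPM reached 3. This is a description over libraries that share the 3 groups. IGFBP5 passed only between the constructs and was not included. For IGFBP4 they were BDNF, a neurotrophin (r = 0.997), CRYAB, the small heat shock protein alpha B-crystallin (0.991), and DPP9, a peptidase (0.985). Their log2 fold changes with YAP1-S127A against MX were 1.38, 2.02 and 0.81, beside 2.14 for IGFBP4. For IGF1R they were VPS11, PSPH and MED12 (0.967, 0.966 and 0.963), and for IGF2R they were WNT3, RNF138 and PLCG1 (0.955, 0.946 and 0.940).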
